A study of Sus scrofa with 48 samples.

Results

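The liver of F2 pigs that descended from boars fed extra methyl donors was compared with the liver of F2 pigs from control boars. All arrays whose source is F2 liver were taken, 16 of the 48 arrays of the series, with 8 pigs labelled as the supplemented line (F2 E) and 8 labelled as the control line (F2 C). The pigs were Swiss Large White. The F0 boars at the head of F2 E were fed a standard diet with added methionine, choline, betaine, folate and vitamins B6 and B12, and those at the head of F2 C were fed the standard diet alone. The F1 boars and all F2 pigs of both lines ate standard diets, so the diet in the label of an array is that of the paternal grandfather and not of the pig. Each line held 4 barrows, which are castrated males, and 4 females. Line here means descent through the male side from a few F0 and F1 boars. The father and litter of each of the 16 pigs are not analysed here, so that line, family and ancestral diet cannot be told apart, and the p-values measure only the spread between these pigs.

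The liver makes most plasma proteins, including the clotting factors, takes up and packs lipids, makes bile acids, breaks down drugs and hormones, and answers growth hormone by releasing IGF-I and its binding proteins. It is also the main organ of methyl group metabolism, where methionine is turned into S-adenosylmethionine and used, among other things, to make phosphatidylcholine. Diets rich in methyl donors act on this pathway in the animal that eats them, and the question of the comparison was whether grandsons and granddaughters that never ate the supplement differed in liver transcripts.

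The pigs fell into 2 runs of pig numbers in the labels, called here the lower and the upper series, each with 4 pigs of either line. Slide 1 carried the lower-series barrows and slide 2 the lower-series females, each with 2 pigs of F2 C and 2 of F2 E, whereas slide 3 carried the 4 upper-series pigs of F2 E and slide 4 the 4 upper-series pigs of F2 C. In the upper series slide and line therefore cannot be told apart, and lower-series values are therefore given beside most results of single genes. Median spot intensity was 88 to 167 over the 16 arrays, and 24128 to 30814 spots per array were well above background. The upper-series F2 C arrays stood apart by 65 to 425 spots marked as outliers by the scanner software, against 6 to 28 on the other 12 arrays. Pairs of arrays correlated at 0.963 to 0.991 across probes. Values below are log2 of the quantile-normalized spot intensity (log2 signal), ratios are F2 E over F2 C on that log2 scale, and 28823 probes were compared with limma, with Benjamini-Hochberg adjustment over all of them.

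Few liver probes passed adjustment in the comparison of the lines. At an unadjusted p below 0.01 (limma), 1.26% of the probes were higher and 1.18% lower in F2 E. At an adjusted p below 0.05, 27 probes were called, which is 0.0937% of those compared, 16 higher and 11 lower in F2 E. At an unadjusted p below 0.01 with a ratio of at least 2-fold, the limits used in the study, 95 probes were called, or 0.33%, 49 higher and 46 lower. All 27 adjusted calls had the same sign on slide 1 and on slide 2 taken alone, and had p below 0.05 in the lower series, whose pigs are part of the 16. Of the 95, 76 had p below 0.05 in the lower series with the same sign, 62 had so in the upper series and 43 in both, counts from which nothing is read because both series took part in the selection. A comparison of series that share no pig is given below. In 13 of the 27 the measured values of F2 E did not overlap those of F2 C, in 1 of them (CYTB) with only 4 controls measured. This was the case for 0.0763% of all probes. Only 6 of the 27 and 17 of the 95 could be given a gene name, so the named genes below are a minority of what was called. Some of these names, TCAM1, MBOAT7 and CYTB among them, came from the study's own text and lists of genes that differed in these data. Having a name therefore depended in part on a call, and nothing is read from the named share.

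Of the 6 named adjusted calls, 2 were higher in F2 E (TCAM1 and IYD) and 4 were lower (MBOAT7, GALP, UCP3 and CYTB). TCAM1 is named for a cell adhesion molecule of the testis. Its log2 signal in F2 C ran from 5.97 through a median of 6.31 to 6.50, and in F2 E from 7.53 through 8.21 to 8.67. The lines did not overlap, and the ratio was 1.83 ± 0.15 (SE, n = 8 per line, 3.56-fold, limma adjusted p = 1.03e-05). The TCAM1 ratio of the lower series alone was 2.16 ± 0.19, with 2.23 on slide 1 and 2.08 on slide 2, and in the upper series it was 1.51 ± 0.18.

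IYD encodes iodotyrosine deiodinase, which recovers iodide from iodinated tyrosines left over from thyroid hormone synthesis and is also made in liver. Its log2 signal was 10.94 to 12.77 in F2 C, with a median of 11.80, and 12.77 to 13.73 in F2 E, with a median of 13.04. The highest control pig and the lowest F2 E pig, both of the upper series, met at 12.77, and within the lower series the lines were apart, at 11.78 to 12.21 against 12.88 to 13.73, as was the case for 4.75% of all probes. The ratio was 1.48 ± 0.24 (SE, n = 8 per line, 2.80-fold, limma adjusted p = 0.0185) over all pigs and 1.33 ± 0.22 in the lower series, where it was called as well (adjusted p = 0.0434). With slide as a random block the adjusted p of IYD over all pigs was 0.0597. The lower-series call of IYD was lost when any 1 of the 4 F2 C pigs or F2 E replicate 5, 6 or 7 was left out, with ratios of 1.20 to 1.42 and limma adjusted p-values up to 0.172.

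MBOAT7 encodes an enzyme of the membrane that links arachidonic acid to lysophosphatidylinositol. All 8 control livers held a log2 signal of 10.12 to 10.79, and 7 of the 8 livers of F2 E lay between 7.91 and 8.37. The remaining pig, the upper-series female F2 E replicate 3, had 10.67, at the level of the controls. Over all pigs the MBOAT7 ratio was -2.05 ± 0.30 (SE, n = 8 per line, 4.15-fold lower in F2 E, limma adjusted p = 0.00724). The study's real-time PCR on liver RNA of the same pigs did not bear out this MBOAT7 difference, although the study calls the trend similar. By that method the study did find the liver differences of IYD and TCAM1. Among lower-series pigs, where none stood apart, the MBOAT7 ratio on the arrays was -2.16 ± 0.14 (adjusted p = 7.22e-05), with -2.28 on slide 1 and -2.03 on slide 2. The same female stood apart for GALP, which encodes galanin-like peptide, a hypothalamic neuropeptide known for its part in feeding. GALP had a log2 signal of 7.44 to 8.32 in F2 C, with a median of 7.96, and of 5.49 to 6.55 in 7 pigs of F2 E, against 7.98 in that female. GALP was well above background on 8 of 8 control arrays and on 4 of 8 arrays of F2 E. Its ratio was -1.59 ± 0.25 over all pigs (3.02-fold lower, limma adjusted p = 0.00967) and -1.84 ± 0.25 in the lower series (adjusted p = 0.0166). Without F2 E replicate 3 the ratio was -2.37 for MBOAT7 and -1.83 for GALP. The lower-series call of GALP was lost without F2 C replicate 5, 6 or 8 or F2 E replicate 6 or 7, with limma adjusted p-values of 0.0544 to 0.0682.

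UCP3 encodes an uncoupling protein of the inner mitochondrial membrane that is best known from skeletal muscle. Here the control livers spread widely and the F2 E livers did not: the log2 signal of UCP3 ran from 6.59 through 9.12 to 11.03 in F2 C and from 5.95 through 6.43 to 6.65 in F2 E. The lowest control, the lower-series female F2 C replicate 7, lay within the range of F2 E, and every other control lay above it. UCP3 was well above background on 8 of 8 control arrays and on 5 of 8 arrays of F2 E. The ratio was -2.72 ± 0.48 (SE, n = 8 per line, 6.58-fold lower, limma adjusted p = 0.0311). It was -2.40 ± 0.71 in the lower series, with -3.75 on slide 1 and -1.05 on slide 2, and -3.04 ± 0.53 in the upper series. The UCP3 call sat near the threshold: with slide as a random block the adjusted p was 0.0847, and it lay between 0.0587 and 0.0686 when F2 E replicate 1, 3, 6, 7 or 8 or F2 C replicate 1, 3, 4 or 8 was left out.

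CYTB is the subunit of respiratory complex III that the mitochondrial genome encodes. Its spot was marked as an outlier on all 4 upper-series F2 C arrays, so the comparison rests on 4 control pigs at 18.06 to 18.17 and 8 pigs of F2 E at 17.04 to 17.57. The lower-series CYTB ratio was -0.70 ± 0.14, against -0.80 ± 0.12 with all F2 E pigs (1.75-fold lower, limma adjusted p = 0.0185). With the marked spots kept, the CYTB ratio over 8 and 8 pigs was -0.36 (adjusted p = 0.602). The adjusted p of CYTB also passed 0.05 when F2 E replicate 1 or F2 C replicate 5, 7 or 8 was left out, with values of 0.0557 to 0.0719.

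**Figure D1:**
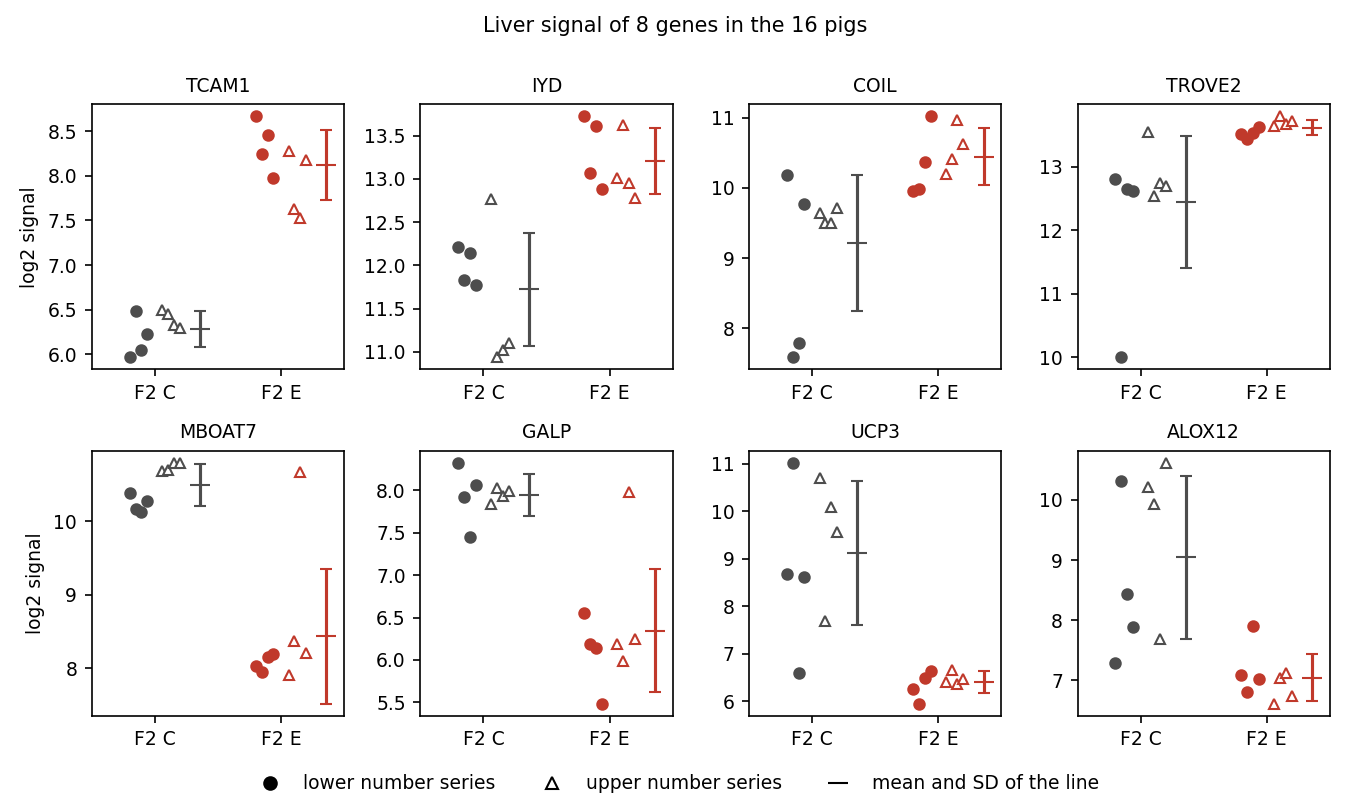
Log2 signal (y axes) of 8 genes in the liver of F2 C and F2 E pigs, 1 point per pig (filled circles, lower number series; open triangles, upper number series), with the mean and SD of the 8 pigs of each line. TCAM1 shows 2 separate bands, and MBOAT7 and GALP show 1 F2 E pig of the upper series at the control level. UCP3 and ALOX12 show widely spread controls, the lowest of which lies within the range of the narrower F2 E group.

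The unnamed adjusted calls included larger shifts than most named ones. The probe A_72_P267616 had a log2 signal of 6.21 to 8.56 in F2 C and 8.17 to 10.84 in F2 E, a ratio of 2.68 ± 0.41 (SE, n = 8 per line, limma adjusted p = 0.00967). For A_72_P195467 the ranges were 6.65 to 9.84 and 9.33 to 10.74, with a ratio of 2.10 ± 0.38 (adjusted p = 0.038, and 0.0862 with slide as a random block). Both pairs of ranges overlapped over all pigs, but not within the lower series. Of the probes that were lower in F2 E, A_72_P158586 had a ratio of -1.23 ± 0.22 (adjusted p = 0.0324, and 0.0862 with slide as a random block). The other, A_72_P155041, was well above background on all 8 control arrays and on none of F2 E. It was at least 2.15-fold lower in F2 E, a bound computed against the lowest signal well above background on each array, and its limma adjusted p was 0.00333. The calls of A_72_P195467 and A_72_P158586 were lost when most single pigs were left out, with limma adjusted p-values up to 0.104 for the first and 0.0879 for the second.

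Among named genes at p below 0.01 and at least 2-fold that had p below 0.05 in the lower series, 3 others were higher in F2 E and 4 others lower. None of these 7 passed adjustment over all probes. COIL encodes coilin, the scaffold of Cajal bodies in the nucleus, and TROVE2 encodes Ro60, which binds small noncoding RNAs. COIL had log2 signals of 7.59 to 10.19 in F2 C and 9.96 to 11.02 in F2 E, with a ratio of 1.23 ± 0.33 (limma adjusted p = 0.226). The low controls for COIL were F2 C replicates 6 and 7 of the lower series, at 7.59 and 7.79, and without either of them or without F2 E replicate 8 the lower-series ratio was 1.08, 1.15 or 1.27 and no longer at p below 0.05. TROVE2 lay between 13.44 and 13.80 in all 8 pigs of F2 E and between 12.54 and 13.55 in 7 controls, while F2 C replicate 6 had 10.004. Its ratio was 1.17 ± 0.33 (adjusted p = 0.267) with that pig and 0.82 without it (adjusted p = 0.0207).

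ALOX12 encodes the arachidonate 12-lipoxygenase. It resembled UCP3 in its spread, with log2 signals of 7.28 to 10.62 in F2 C, with a median of 9.19, and of 6.61 to 7.90 in F2 E, with a median of 7.02. The ratio of ALOX12 was -2.01 ± 0.44 (limma adjusted p = 0.12). Lower-series pigs alone gave -1.27 ± 0.55, and it was -0.66 without F2 C replicate 6, whose value was 10.31. The lower-series p of ALOX12 was not kept below 0.05 without that pig, nor without F2 C replicate 7 or F2 E replicate 5, 6 or 8, with ratios of -1.14 to -1.29. NID1, a glycoprotein of basement membranes, had a ratio of -1.17 ± 0.27 (adjusted p = 0.14). Lower-series NID1 lay at 11.37 to 11.59 in F2 C and 10.26 to 11.02 in F2 E, without overlap, a ratio of -1.02 ± 0.19. SLC3A1, the heavy chain of a cystine and dibasic amino acid transporter, had a ratio of -1.32 ± 0.33 (adjusted p = 0.177), which was -0.64 in the lower series and -2.01 in the upper series. The difference in ratio between the series was -1.37 for this SLC3A1 probe and did not pass adjustment (limma interaction, adjusted p = 0.283), and the lower-series p was not kept below 0.05 without F2 C replicate 5 or 8 or F2 E replicate 7 (ratios of -0.42 to -0.58). A second SLC3A1 probe, A_72_P041371, had a ratio of -1.80 ± 0.50 (adjusted p = 0.261), with -0.45 in the lower series, where p was not below 0.05, and -3.15 in the upper series.

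**Figure D2:**
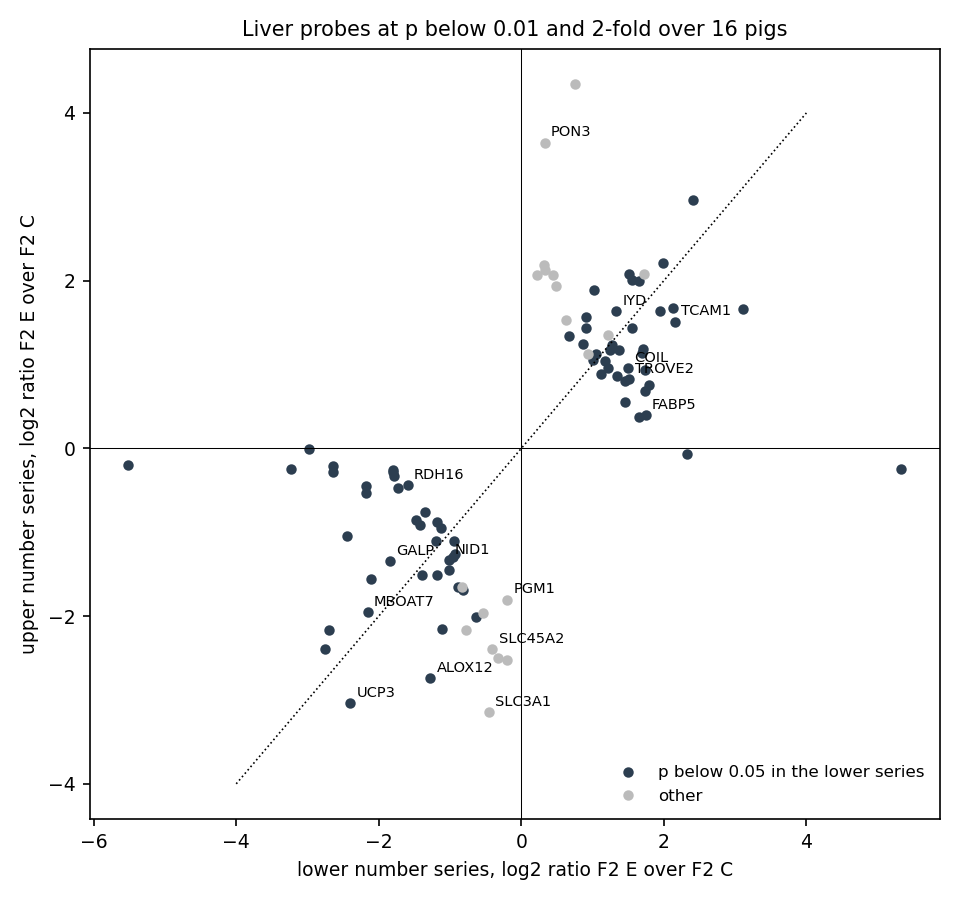
Log2 ratio (F2 E over F2 C) in the lower number series (x axis) against the upper number series (y axis) for 94 liver probes at p below 0.01 and 2-fold over all 16 pigs, dark where p was below 0.05 in the lower series, with the dotted line marking equal ratios. UCP3, MBOAT7, GALP, IYD and TCAM1 lie near the dotted line, PON3 lies high with a lower-series ratio near 0, and some dark points have an upper-series ratio near 0.

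In the lower series alone, where each slide carried both lines, 62 probes passed an adjusted p below 0.05 (0.215% of those compared), 25 higher and 37 lower in F2 E. At p below 0.01 and 2-fold, 217 did (0.753%), and in the upper series the corresponding counts were 37 (0.129%) and 175 (0.608%). The upper series shares no pig with the lower one. Of the 61 lower-series calls that could be compared there, 39 had the same sign in the upper series, where 54.5% of all probes had the same sign in both, and 10 of them had p below 0.05, where 5.05% of all probes had the same sign and p below 0.05 in the upper series. In the other direction, of the 175 upper-series probes at p below 0.01 and 2-fold, 102 had the same sign in the lower series (58.3%) and 36 of them had p below 0.05 there (20.6%, against 4.75% of all probes). The ratio differed between the series by a test of that difference (limma interaction, adjusted p below 0.05) for 30 probes, or 0.104%, none of which had a gene name. Beside TCAM1, MBOAT7, GALP and IYD, 3 named genes were called in the lower series: FABP5, FABP4 and NEU1.

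FABP5 and FABP4 encode carriers of long-chain fatty acids in the cytoplasm that are best known from skin and fat tissue and from macrophages. The Kupffer cell and macrophage markers, 9 probes of 6 genes, had 6 higher in F2 E in the lower series with a median ratio of 0.14, and their summed signal there was 81770 to 101400 in F2 C and 82450 to 143300 in F2 E. In the upper series 8 of the 9 were lower in F2 E, with a median ratio of -0.20. The part of these cells in the FABP5 and FABP4 ratios was not tested. The 4 lower-series controls had FABP5 log2 signals of 9.79, 9.58, 9.75 and 10.0045, and the 4 pigs of F2 E had 11.08, 12.04, 11.61 and 11.38. The lines were fully apart there, with a FABP5 ratio of 1.75 ± 0.21 (SE, n = 4 per line, 3.36-fold, limma adjusted p = 0.00695). In the upper series the FABP5 values of the lines overlapped and the ratio was 0.39 ± 0.38. For FABP4 the lower-series controls had 7.99, 7.41, 7.83 and 8.32 and the F2 E pigs 8.87, 9.71, 9.76 and 9.62. Its ratio was 1.60 ± 0.25 in the lower series (3.04-fold, limma adjusted p = 0.0358) and 0.17 ± 0.24 in the upper series, with an interaction that did not pass adjustment (adjusted p = 0.243). The adjusted p of FABP4 was 0.0606 with the replicate block, and it was 0.0966 to 0.12 when F2 C replicate 5, 6 or 7 or F2 E replicate 6, 7 or 8 was left out.

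NEU1 encodes the lysosomal sialidase. The lower-series controls had log2 signals of 12.16, 12.58, 12.41 and 12.27 and the lower-series F2 E pigs had 11.57, 10.76, 10.76 and 10.80, a ratio of -1.38 ± 0.21 (SE, n = 4 per line, 2.61-fold lower, limma adjusted p = 0.0309). In the upper series NEU1 lay at 10.81 to 11.12 in F2 C and 10.81 to 12.11 in F2 E, and the ratio was 0.47 ± 0.29. The interaction for NEU1 had an adjusted p of 0.0856. With the replicate block the lower-series adjusted p was 0.0676, and it was 0.0773 to 0.11 when any 1 of the 4 controls or F2 E replicate 6, 7 or 8 was left out.

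RDH16 encodes a retinol dehydrogenase that is abundant in liver. The lower-series controls had log2 signals of 14.03, 14.03, 13.69 and 14.43 and the F2 E pigs 13.45, 12.55, 11.9995 and 11.80. All 4 F2 E values lay below the controls, with a ratio of -1.60 ± 0.33 in the lower series (3.02-fold lower, limma adjusted p = 0.142) and of -0.43 ± 0.16 in the upper series. Over all pigs RDH16 had a ratio of -1.02 ± 0.23 (2.02-fold lower, adjusted p = 0.14).

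**Figure D3:**
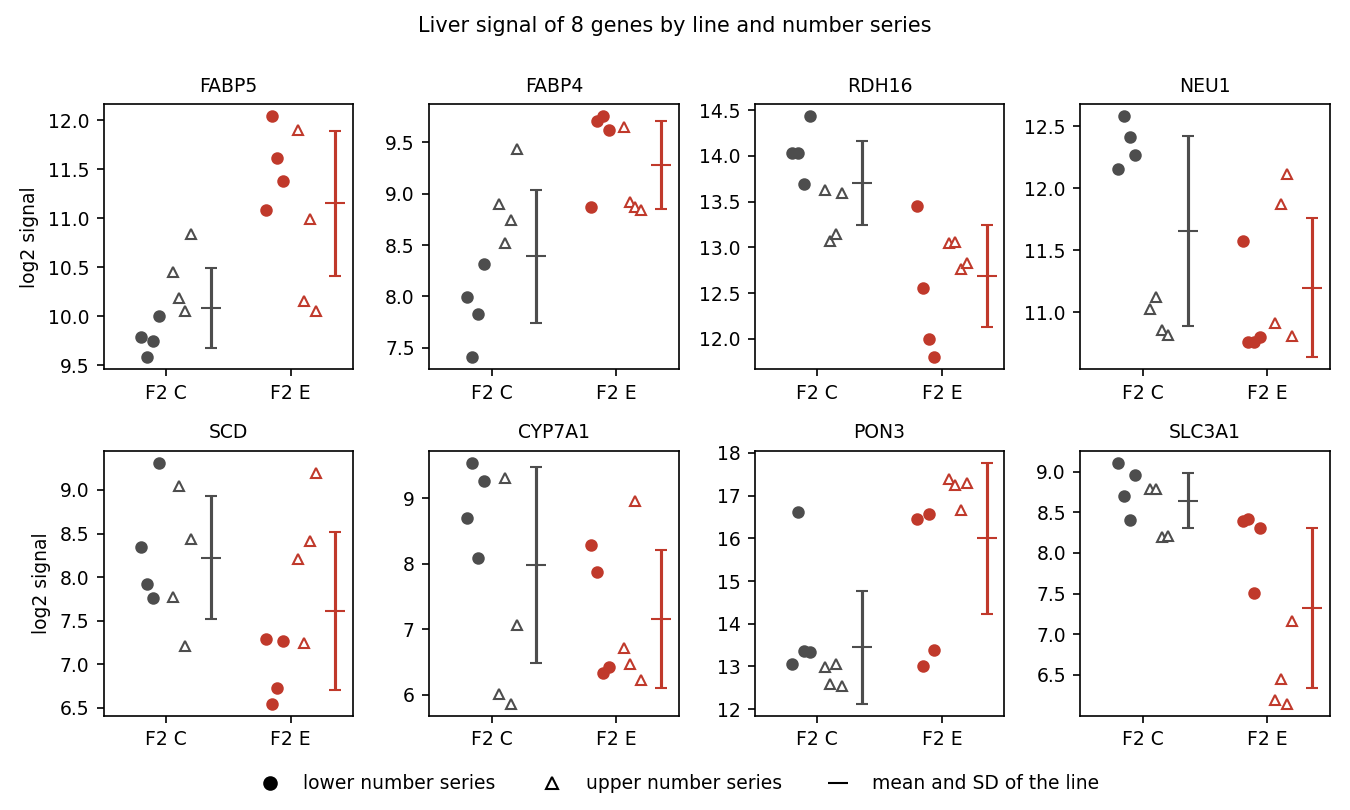
Log2 signal (y axes) of 8 genes by line, 1 point per pig (filled circles, lower number series; open triangles, upper number series), with the mean and SD of the 8 pigs of each line. The filled circles of FABP5, FABP4, RDH16, NEU1 and SCD are apart between the lines, whereas for PON3 and SLC3A1 the open triangles are the more widely separated.

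The largest shifts of the lower series were at probes without a gene name, described here after their values were seen. A_72_P073141 and A_72_P088136 lay at 5.39 to 5.99 in the 4 lower-series controls, not well above background on any of those arrays, and at 15.48 to 17.22 in the 4 lower-series pigs of F2 E. They were at least 1271-fold and 1237-fold higher in F2 E there, on the same kind of bound as above (limma adjusted p = 9.83e-08 and 7.67e-08). In the upper series 1 pig of each line, F2 E replicate 3 and F2 C replicate 4, both females, had log2 signals of 16.30 to 16.72 for both probes, and the other 6 pigs had 5.21 to 6.31. A_72_P184916 was high in the 4 lower-series controls only, at 11.49 to 12.07 against 5.26 to 6.53 in the other 12 pigs (limma adjusted p in the lower series = 3.62e-07). It was well above background on only 1 of the 4 lower-series arrays of F2 E, so no size is given for that ratio. A_72_P322313 was low in those 4 controls, at 7.55 to 9.18, against 12.04 to 13.73 in the other 12 pigs. A_72_P375673 was high in the 4 lower-series pigs of F2 E, at 10.01 to 11.26, against 5.99 to 7.20 in the other 12. For the last 3 probes the ratio differed between the series (limma interaction, adjusted p = 1.22e-08, 1.98e-06 and 5.09e-05), so that the 4 pigs of 1 line within 1 number series stood apart rather than a whole line.

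The liver functions were described with lists of genes whose probes could be named through RefSeq. Of the 2210 named probes, 873 were higher and 1337 lower in F2 E (60.5% lower, against 53.8% of all probes), with a median ratio of -0.05. In the lower series 61.6% of the named probes and 55.1% of all probes were lower. The counts of lower probes in each list below are read against these shares. They count probes, and some genes have several. Of the named probes, 44 were lower at p below 0.01 against 19 higher, where 1.18% and 1.26% of all 28823 probes were. Coagulation and complement had 35 probes of 28 genes, 6 higher and 29 lower in F2 E, with a median ratio of -0.17, against a median of -0.02 over all probes. At p below 0.01, 4 of the 35 were lower and 0 higher, and all 4 belong to clotting: F10 (factor X), F2 (prothrombin), F7 (factor VII) and PROC (protein C, which restrains clotting). The complement members of the list had no such probe. Outside it, described after their values were seen, the complement genes SERPING1, an inhibitor of the first complement component, and FCN2, a ficolin, had 1 probe each lower at p below 0.01 (-0.60 ± 0.18 and -0.39 ± 0.13), with another SERPING1 probe at -0.10. Prothrombin F2 had log2 signals of 13.53 to 14.12 in F2 C and of 12.31 to 14.09 in F2 E, with a ratio of -0.70 ± 0.20 (SE, n = 8 per line, limma adjusted p = 0.275), while a second F2 probe had -0.06 ± 0.08. F10 had a ratio of -0.50 ± 0.13 (adjusted p = 0.195), F7 of -0.53 ± 0.17 (adjusted p = 0.329) and PROC of -0.47 ± 0.15 (adjusted p = 0.349), and the ranges of the lines overlapped for all 4. Their lower-series ratios were -0.80 for F2, -0.67 for F10, -0.79 for F7 and -0.52 for PROC, the last with a p that was not below 0.05, and 1 pig of F2 E, the barrow replicate 5, was the highest of its group there for each of them. F7 did not keep p below 0.01 without F2 C replicate 5 or F2 E replicate 7 or 8, nor PROC without F2 C replicate 3, 4 or 5 or F2 E replicate 3, 6, 7 or 8, with ratios of -0.43 to -0.47 and -0.40 to -0.46.

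Cytochrome P450 and conjugation genes had 26 of 37 probes lower in F2 E (70.3%, against 60.5% of the named probes), with a median ratio of -0.12, and in the lower series 31 of 37 with a median of -0.23. CES1, a carboxylesterase that cleaves drugs and lipid esters, had a ratio of -0.70 ± 0.21 (limma adjusted p = 0.283), CYP2C49 of -0.62 ± 0.19 (adjusted p = 0.32) and CYP2A19 of -0.61 ± 0.21 (adjusted p = 0.401), the last 2 being pig P450 enzymes of drug metabolism. These were the 3 probes of the list that were lower at p below 0.01, and the second probes of CES1, CYP2C49 and CYP2A19 had -0.32, -0.27 and -0.03. Their lower-series ratios were -0.64 for CES1, -0.57 for CYP2C49 and -0.66 for CYP2A19, of which that of CYP2C49 did not reach p below 0.05. CYP2A19 did not keep p below 0.01 without F2 E replicate 2, 3, 6, 7 or 8 or F2 C replicate 2, 4, 5, 7 or 8 (ratios of -0.45 to -0.64), nor CYP2C49 without F2 C replicate 2 or 7 (-0.58 and -0.49). The 2 probes higher at p below 0.01 both belong to PON3, a lactonase that travels on high-density lipoprotein, with ratios over all pigs of 2.55 ± 0.69 and 1.99 ± 0.68 that did not pass adjustment (limma adjusted p = 0.226 and 0.394). For the PON3 probe A_72_P385478 the upper-series controls had log2 signals of 12.55 to 13.06 and the upper-series F2 E pigs 16.65 to 17.39, a ratio of 4.35 ± 0.20 (limma adjusted p = 5.62e-05). Of the lower series, 1 of 4 controls (16.62) and 2 of 4 pigs of F2 E (16.45 and 16.58) were high and the other 5 lay at 13.01 to 13.37, so the ratio there was 0.75 ± 0.99 with no call. PON3 thus had a high or a low level in each pig, with 6 high pigs in F2 E and 1 in F2 C. Without that 1 control, F2 C replicate 6, the ratio over the remaining pigs was 3.00 for this probe and 2.40 for the other PON3 probe A_72_P223547, against 2.55 and 1.99 with it. The second probe did not keep p below 0.01 when any pig other than F2 C replicate 6 or F2 E replicate 6 or 8 was left out (ratios of 1.76 to 1.97).

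The growth hormone, IGF and thyroid hormone list had 24 probes of 18 genes. Of these probes 16 were lower in F2 E (66.7%, near the 60.5% of the named probes), with a median ratio of -0.14. Several of them were probes of IGF2, with ratios of -0.12 to -0.18. In the lower series 18 of 24 were lower (75%, against 61.6% of the named probes), with a median of -0.29. Apart from IYD, which was higher, IGFALS and GHR passed p below 0.01 and both were lower. IGFALS, the acid-labile subunit that holds IGF in the circulating complex, had log2 signals of 8.84 to 9.81 in F2 C and 7.79 to 9.28 in F2 E, a ratio of -0.71 ± 0.20 (limma adjusted p = 0.275) and of -1.02 ± 0.31 in the lower series. GHR, the growth hormone receptor, had a ratio of -0.37 ± 0.12 (adjusted p = 0.362). Its 4 lower-series values in F2 E lay below those of the controls, with a ratio of -0.29 there and p not below 0.05. GHR did not keep p below 0.01 without F2 E replicate 1, 3, 6 or 8 or F2 C replicate 1, 2, 3, 7 or 8 (ratios of -0.32 to -0.37). Both probes of SOCS2, a target and inhibitor of growth hormone signalling, had ratios of -0.92 ± 0.34 and -0.85 ± 0.33 with unadjusted p below 0.05 (limma adjusted p = 0.461 and 0.49), and of -1.37 and -1.20 in the lower series.

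**Figure D4:**
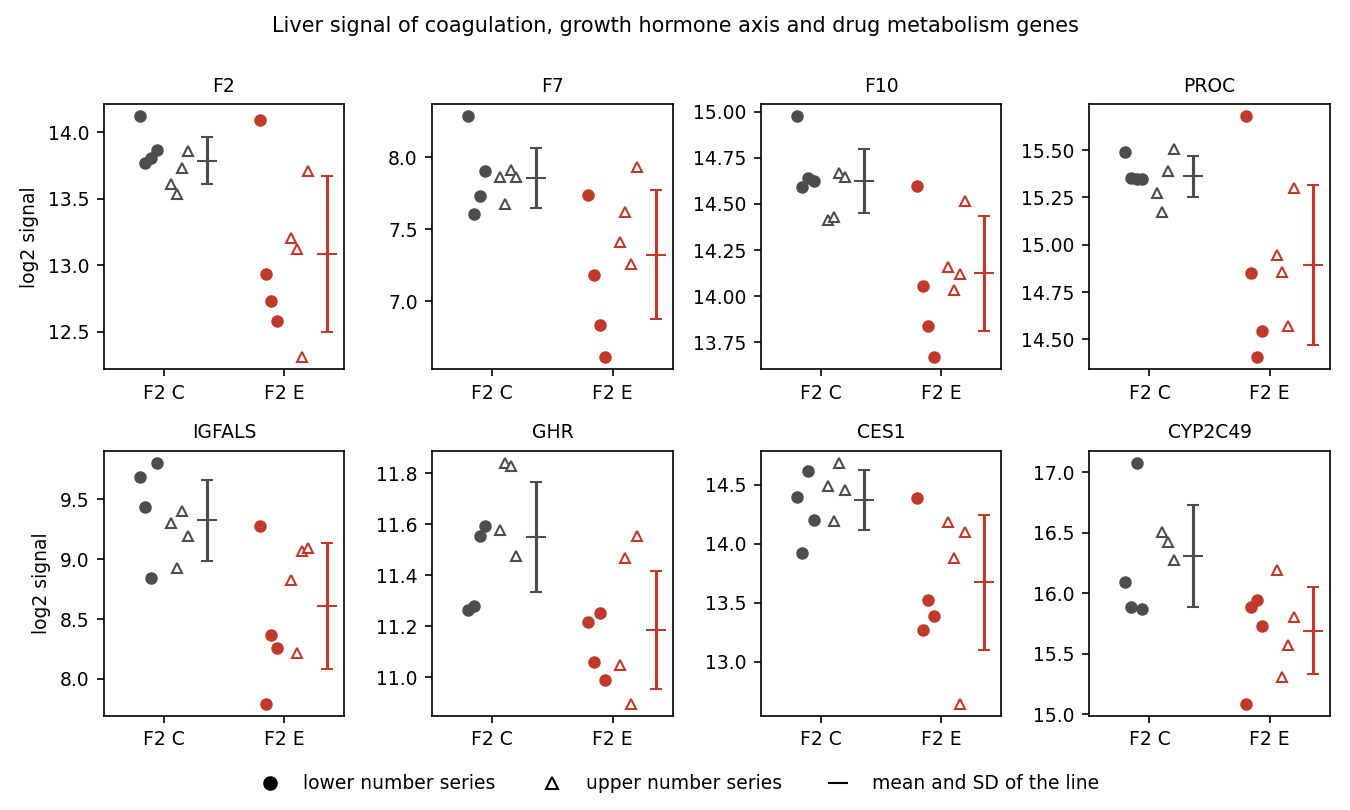
Log2 signal (y axes, each starting above 0) of 4 clotting genes, 2 growth hormone axis genes and 2 drug metabolism genes by line, 1 point per pig (filled circles, lower number series; open triangles, upper number series), with the mean and SD of the 8 pigs of each line. The mean of F2 E is below that of F2 C in every panel, the single pigs of the lines overlap, and F2 E spreads more widely than F2 C for F2, F7, F10, PROC, IGFALS and CES1. A wider spread in F2 E is not particular to these genes: the median SD over all probes was 0.32 in F2 E and 0.25 in F2 C.

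Genes of lipid handling did not move as a block. Fatty acid and triglyceride synthesis had 20 probes of only 9 genes. Over all pigs 15 of the 20 were lower in F2 E, with a median of -0.21 and none at p below 0.05. Within the lower series 19 of 20 were lower, with a median of -0.31, where 61.6% of the named probes were lower. In the upper series 13 of 20 were higher. At p below 0.05 in the lower series the list had 4 lower probes (3.72% of all probes were lower and 4.02% higher at that p there). SCD, the desaturase that makes oleic acid, gave 3 of those 4 probes, with lower-series ratios of -1.38 ± 0.33, -1.57 ± 0.40 and -1.52 ± 0.38 and upper-series ratios of 0.15, 0.18 and 0.19. For the SCD probe A_72_P359613 the lower-series log2 signals were 8.34, 7.92, 7.77 and 9.31 in F2 C and 7.29, 6.55, 6.73 and 7.26 in F2 E, without overlap. The fourth was a probe of FASN, the fatty acid synthase, with -1.28 ± 0.55 in the lower series, and the other FASN probes had -0.98 and -0.42 there. The first did not keep p below 0.05 without F2 C replicate 5, 6 or 8 or F2 E replicate 6, 7 or 8 (ratios of -0.98 to -1.25). The difference between the series did not pass adjustment for SCD (limma interaction, adjusted p = 0.656, 0.745 and 0.74). CYP7A1, the rate-limiting enzyme of bile acid synthesis, had a lower-series ratio of -1.67 ± 0.47 and an upper-series ratio of 0.03 ± 0.82, with a spread of 5.86 to 9.55 among the controls.

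In lipid uptake and transport 3 of 18 probes were higher at p below 0.01 and 1 was lower. FABP5 and FABP4 were joined by LIPE, the hormone-sensitive lipase, with a ratio of 0.42 ± 0.12 (limma adjusted p = 0.275), and the lower one was APOE, a ligand for the uptake of lipoprotein remnants, with -0.39 ± 0.12 (adjusted p = 0.349). The lower-series ratios were 0.40 for LIPE and -0.33 for APOE, neither at p below 0.05. APOE did not keep p below 0.01 without F2 E replicate 3 or 6 or F2 C replicate 1, 4, 5 or 7 (ratios of -0.35 to -0.39). In fatty acid oxidation, 12 of 26 probes were higher and 14 lower, with UCP3 the 1 lower probe at p below 0.01 and CPT1B the 1 higher one. CPT1B, the muscle form of the enzyme that admits fatty acids to mitochondria, had log2 signals of 7.06 to 8.04 in F2 C and 7.63 to 9.54 in F2 E, a ratio of 0.73 ± 0.21 (limma adjusted p = 0.266) and of 0.65 in the lower series. Its other probes had ratios of 0.60 and 0.24.

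**Figure D5:**
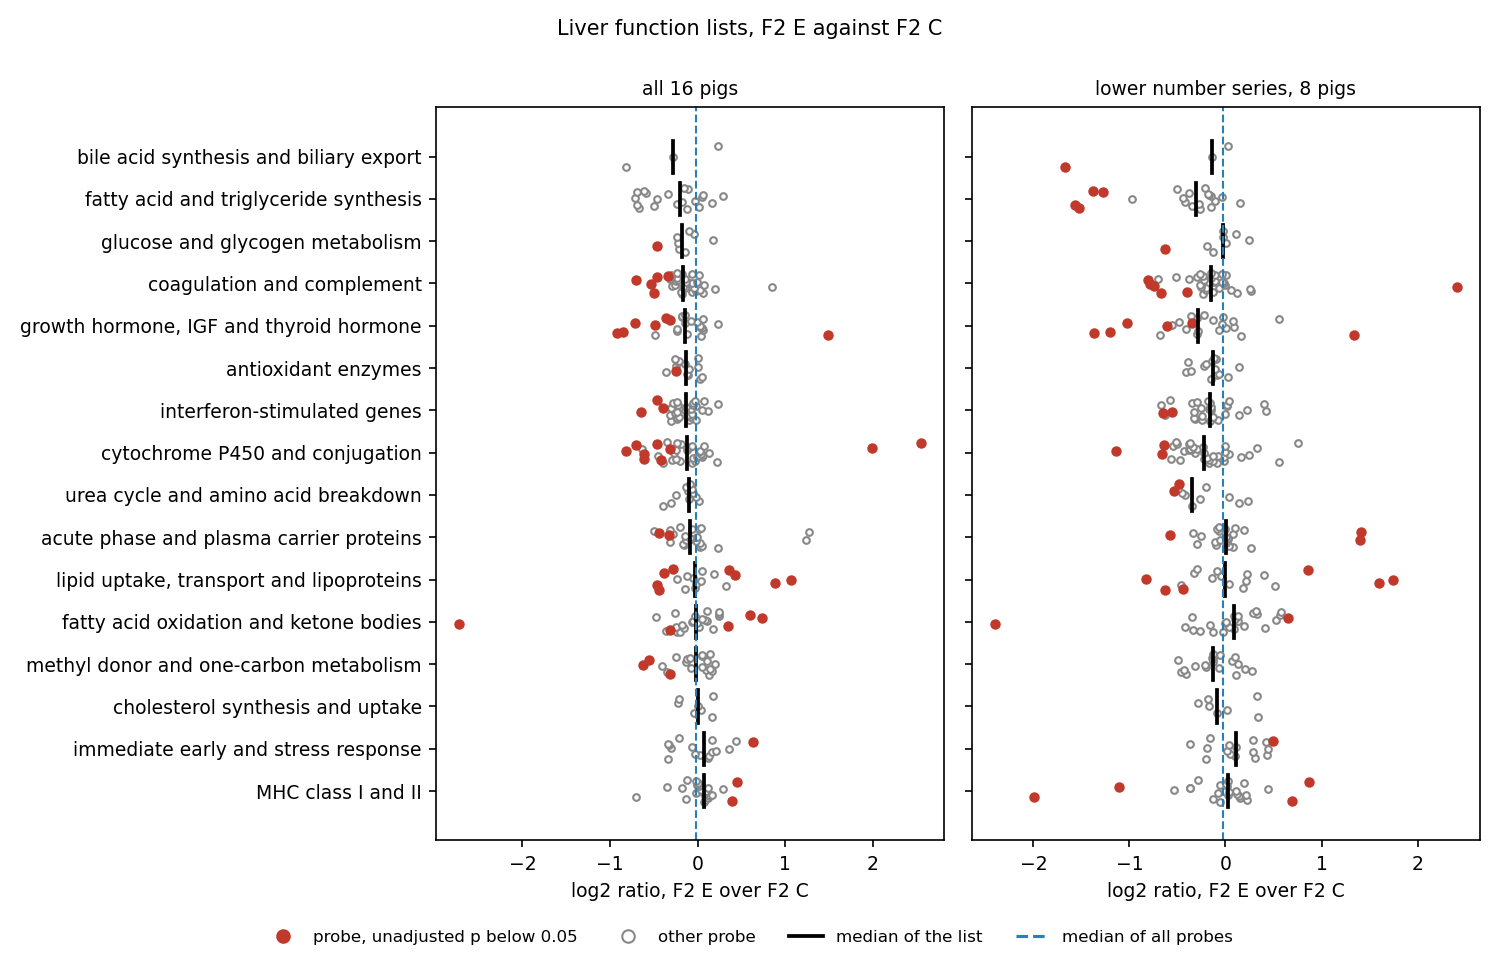
Log2 ratio (F2 E over F2 C, x axes) for each probe of 16 liver function lists over all 16 pigs and in the 8 lower-series pigs, filled where the unadjusted p was below 0.05, with the median of each list as a bar and that of all probes as a dashed line. Most list medians lie within 0.3 of 0, and the far points are single genes such as UCP3 (-2.72), PON3 (2.55 and 1.99) and, in the lower series, SCD (-1.38 to -1.57).

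The methyl donor and one-carbon list holds enzymes, receptors and carriers that handle the supplemented nutrients. Only 10 of its 36 genes had a named probe that was compared, so most of the pathway was not seen. It had 10 of 20 probes higher and 10 lower, with a median ratio of -0.02 and none at p below 0.01. Its 3 probes at p below 0.05, which 4.32% of all probes reached as lower and 3.97% as higher, were all lower: GNMT, which disposes of excess S-adenosylmethionine (-0.62 ± 0.23, limma adjusted p = 0.466), PDXK, which activates vitamin B6 (-0.56 ± 0.22, adjusted p = 0.497), and PEMT, which methylates phosphatidylethanolamine (-0.32 ± 0.14, adjusted p = 0.538). In the lower series 0 probes of this list had p below 0.05, and these 3 had ratios of -0.21 for GNMT, -0.50 for PDXK and -0.41 for PEMT. The urea cycle and amino acid breakdown list had 10 of 11 probes lower with 0 at p below 0.05, the antioxidant list 10 of 14 lower with 1, and the glucose and glycogen list 7 of 8 lower with 1. The lists of cholesterol synthesis (7 probes) and bile acids (3 probes) were thinly covered and had none.

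Immune lists were split. Interferon-stimulated genes had 27 of 31 probes lower in F2 E, with a median of -0.14, and 1 at p below 0.01, DDX58, a sensor of viral RNA (-0.65 ± 0.20, limma adjusted p = 0.316, and -0.56 in the lower series). DDX58 did not keep that p without F2 C replicate 4 or 6 (-0.56 and -0.57), and its second probe had -0.39. MHC class I and II genes had 16 of 25 probes higher, with a median of 0.08, of which the class II gene SLA-DRB1 passed p below 0.01 (0.45 ± 0.15, adjusted p = 0.383). Lower-series SLA-DRB1 was at 14.21, 14.13, 14.09 and 14.61 in F2 C and at 15.14, 14.97, 15.12 and 15.27 in F2 E, without overlap (ratio 0.86 ± 0.16), and the ratio was 0.03 ± 0.18 in the upper series. Over all pigs it did not keep p below 0.01 without F2 E replicate 1, 3, 4, 5, 6, 7 or 8 or F2 C replicate 3, 5, 6 or 7, with ratios of 0.39 to 0.46, and its other 4 probes had -0.18 to 0.17. Acute phase and plasma carrier proteins had 16 of 24 probes lower, with 2 lower and 0 higher at p below 0.05. Both probes of SAA3, an acute phase protein, had ratios of 1.24 ± 0.60 and 1.27 ± 0.61 (limma adjusted p = 0.611 each), which did not reach an unadjusted p below 0.05. Immediate early and stress genes had 9 of 16 probes higher. MYC, a growth-promoting transcription factor, had log2 signals of 10.76 to 12.24 in F2 C and 10.12 to 12.67 in F2 E, a ratio of -0.34 ± 0.30 (limma adjusted p = 0.817), and was not called.

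The tissue label was borne out by hepatocyte markers, whose signals summed to 3818000 to 4243000 in the F2 C livers and to 3672000 to 4193000 in those of F2 E. In bulk liver, fewer cells of a type and less RNA per cell cannot be told apart. All 10 probes of T and NK cell markers, of 9 genes, were lower in F2 E, with a summed signal of 4287 to 6377 in F2 C and 2931 to 5323 in F2 E. In the lower series 8 of the 10 were lower, with a median ratio of -0.18, and in the upper series all 10, with a median of -0.39. Both probes of CD247, a chain of the T cell receptor complex, had ratios of -0.73 ± 0.15 and -0.75 ± 0.18 (limma adjusted p = 0.0902 and 0.14), and of -0.88 each in the lower series. This stood beside the lower interferon list, and the part of these cells in it was not tested. Adipocyte markers, a list that itself holds FABP4 and LIPE, had 5 of 8 probes higher in F2 E and a summed signal of 2089 to 3012 in F2 C and 2504 to 3793 in F2 E. Endothelial markers, a list without NID1, had 6 of 8 probes lower, a median ratio of -0.08 and sums of 94180 to 152100 and 78160 to 112300. The list holds FCN2, given above, whose mean log2 signals of 16.56 in F2 C and 16.17 in F2 E weigh heavily in these sums. Kidney and pancreas markers overlapped, at 7060 to 27530 in F2 C and 8228 to 26190 in F2 E. The part of these cells in the results was not tested.

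The kidney and muscle arrays of the same 16 pigs gave values for the same genes, and the difference between tissues was not tested. In kidney 4 probes passed an adjusted p below 0.05 (0.0119% of those compared) and in muscle 197 (0.769%). MBOAT7 was lower in F2 E in kidney (-1.90 ± 0.24, limma adjusted p = 0.00632) and muscle (-1.52 ± 0.22, adjusted p = 0.00423) as in liver. TCAM1 had ratios of 0.92 ± 0.20 in kidney (adjusted p = 0.262) and 1.38 ± 0.19 in muscle (adjusted p = 0.00285), and IYD had 1.19 ± 0.22 in kidney (adjusted p = 0.158). COIL and TROVE2 had 1.41 and 0.97 in kidney and 1.30 and 1.12 in muscle, with adjusted p-values from 0.0674 to 1.00. The ratios in kidney and muscle were -0.16 and 0.05 for FABP5, -0.06 and 0.34 for FABP4, -0.29 and 0.19 for RDH16, -0.54 and -0.08 for ALOX12 and 2.67 and 1.54 for the PON3 probe A_72_P385478, none of them at an adjusted p below 0.05. UCP3 had ratios of 2.52 ± 0.91 in kidney (limma adjusted p = 1.00) and 0.15 ± 0.28 in muscle (adjusted p = 0.824).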

How the data were processed

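Total RNA of liver, kidney and gluteus muscle was hybridized in a single colour to a 4-array porcine slide, and spots were read by Agilent Feature Extraction 10.5.1.1 per the file headers. The deposited intensity values are the authors' scanner output, not normalized. A deposited table of the authors also holds log2 signals, used as an alternative, and their own ratios, p-values and false discovery rates, which were not used. Columns of other samples left out numbered 0.

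The median spot intensity of 43803 probe spots (43603 probes) was quantile-normalized over the 16 liver arrays and log2-transformed. Outlier-marked spots were then removed, spots of a probe averaged, and probes kept if they exceeded a linear signal of 25 and were well above background in 50% or more of the pigs of 1 line, with at least 2 unmarked arrays per line. Lines were compared with limma 3.58.1 in R 4.3.3 over all 16 pigs, within each number series and for their interaction, with Benjamini-Hochberg adjustment. Kidney and muscle arrays were processed in the same way, each tissue on its own. limma takes the place of the plain t-test of the methods, which was run as an alternative. The number of pigs limits the precision. The script was tested on simulated data.

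Same-numbered pigs of the lower series shared slide and sex. Their deviations from the line means correlated at 0.14 to 0.588, and those within line and series at 0.327 to 0.49. The labels state no pairing, and pairing cannot be told apart here from the shared slide and sex. A fit with these 4 pairs as blocks was therefore run as an alternative. The lower-series ratios and calls above come from the fit without pairs, and the paired fit is given below. Over all 8 pairs 6 correlated above 0.1, but only 3 pigs of F2 E correlated best with their own number. The numbers were therefore not taken to pair the 16 pigs.

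Gene names came from RefSeq by accession for 2210 of the compared probes, and otherwise from names in the study's methods and supplementary lists (TCAM1, MBOAT7, CYTB, ALOX12, NID1, COIL, TROVE2 and RDH16 among them). The supplementary lists hold genes at p below 0.01 in the study's own tests of this series, and the methods name genes chosen for their difference. A name from these sources therefore depended on a call in the same data. Named were all adjusted calls with a name, the 2 strongest unnamed ones in each direction, up to 20 named genes at p below 0.01 and 2-fold that also had p below 0.05 in the lower series, up to 10 named lower-series calls, 4 genes the study singled out (IYD, MBOAT7, TCAM1 and MYC), and list members at p below 0.01 or, up to 3 a list, of highest signal. The members and lists were chosen with earlier results of these data known. SAA3, SOCS2, GNMT, PDXK and PEMT fall outside this rule and were described after their values were seen. The alternatives were other scalings, background corrections, presence filters, treatments of marked spots, covariates and blocks, and each pig left out in turn. Normexp on the median signal was chosen after seeing the data.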

Additional observations from a re-analysis of the deposited data

Results flagged for a closer look

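In 10 of the 72 groups of 4 to 8 measured pigs examined for the named probes, 1 pig lay far from the rest. Chance gives about 1 in 20 for independent, normally distributed groups. These groups share pigs and some are probes of the same gene, so that share is only a rough guide. The female F2 E replicate 3 had MBOAT7 at 10.67, with the next pig of its line at 8.37, and GALP at 7.98, with the next at 6.55. F2 C replicate 6, a lower-series barrow, had the PON3 probes A_72_P385478 at 16.62 and A_72_P223547 at 11.41, with the next controls at 13.36 and 8.36, and had TROVE2 at 10.004, with the next at 12.54. F2 C replicate 5, also a lower-series barrow, had F10 at 14.97 (next 14.67) and F7 at 8.28 (next 7.91). F2 E replicate 2, an upper-series female, had CPT1B at 9.54 (next 8.37) and SLA-DRB1 at 14.22 (next 14.84). F2 E replicate 7, a lower-series female, had ALOX12 at 7.90 (next 7.11). All values are log2 signals.

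For 30 probes the ratio of F2 E over F2 C differed between the number series (limma interaction, adjusted p below 0.05), with A_72_P184916 the smallest at 1.22e-08. None of the 30 had a gene name.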

How the results depend on the processing

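With 27 adjusted calls and 95 at p below 0.01 and 2-fold over all 16 pigs, the counts moved under several settings. The methods' t-test gave 11 and 63 (18 and 121 in the lower series, 2 and 96 in the upper series). Scaling the median signal to the 75th percentile gave 9 adjusted calls over all pigs, 22 against 62 in the lower series and 14 against 30 for the interaction, and in the upper series 21 higher and 20 lower against 15 and 22. The processed signal gave 205 at p below 0.01 and 2-fold (376 against 217 in the lower series, 381 against 175 in the upper series), with 12 adjusted calls higher and 14 lower over all pigs against 16 and 11. Normexp, chosen after seeing the data, gave 61 and, in the lower series, 129 at p below 0.01 and 2-fold, and 24 adjusted calls against 37 in the upper series. Requiring signal well above background on all 16 arrays gave 16, 38 in the lower series and 19 for the interaction. Number series as a fixed block gave 46. In the lower series sex and slide coincide, and slides 1 and 2 were scanned on different days. Sex as a covariate and slide as a fixed block were therefore the same fit there, which gave 108, and slide as a random block gave 107. Why the counts moved was not tested beyond the smaller number of probes under the stricter filter. Leaving out 1 pig gave 13 to 40 adjusted calls over all pigs (13 without F2 E replicate 1, 17 without F2 C replicate 8), 37 to 84 in the lower series (37, 38 and 39 without F2 C replicates 5, 6 and 8), 5 to 40 in the upper series and 19 to 38 for the interaction (19 without F2 C replicate 7). In the paired fit with the replicate number as a block, 22 adjusted calls were made over all pigs, 16 of them shared with the 27, and 80 in the lower series and 2 in the upper series. Over all 16 pigs 3 of the 8 pigs of F2 E correlated best with their own number, which is a hint from the data only. In the lower series the block ended the calls of FABP4 (adjusted p = 0.0606) and NEU1 (adjusted p = 0.0676) and of no other named gene.

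No named gene with a call changed sign under any alternative run. TCAM1 was called under all 12 alternatives other than leaving out a pig, MBOAT7 under 12 of 13, GALP under 10 of 12, IYD under 9 of 13, UCP3 under 7 of 12 and CYTB under 7 of 13. The medians of the coagulation, interferon, cytochrome P450, fatty acid synthesis and growth hormone lists kept their sign over all pigs under all 29 alternatives, pigs left out included, while that of the MHC list changed sign under 4 (-0.03 with the median signal scaled to the 75th percentile). A slide block could not be fitted in the upper series, where slide and line coincide, and normexp on the mean signal was not run because that column is not used here. TCAM1 in F2 C and GALP and UCP3 in F2 E lay near background, where the size of a ratio depends on the background correction (1.33 to 3.06 for TCAM1 over these alternatives), and 8 pigs per line limit what can be called.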

Other observations

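Other genes named through RefSeq with p below 0.01, described after their values were seen, included the following that were lower in F2 E. They were the deacylases SIRT3 (-0.67 ± 0.20, limma adjusted p = 0.293) and SIRT5 (-0.62 ± 0.20, adjusted p = 0.371), the propionyl-CoA carboxylase subunit PCCB (-0.62 ± 0.17 and -0.69 ± 0.20 for 2 probes), TDH, a threonine dehydrogenase (-0.83 ± 0.23 and -0.86 ± 0.26 for 2 probes), QDPR, which regenerates tetrahydrobiopterin (-0.61 ± 0.17), and ALDH2, the mitochondrial aldehyde dehydrogenase (-0.40 ± 0.14). In the lower series the ratios were -0.76 for SIRT3, -0.77 for SIRT5, -0.72 and -0.71 for PCCB, -0.53 and -0.47 for TDH, -0.94 for QDPR and -0.44 for ALDH2. Other probes of these genes were at -0.17 for PCCB, -0.34 for QDPR and -0.53 and -0.07 for ALDH2. Neither of these ALDH2 probes had p below 0.05. AQP9, the glycerol channel of hepatocytes, had -0.66 ± 0.19 and TKT, the transketolase of the pentose phosphate pathway, -0.45 ± 0.14, with -0.50 and -0.62 in the lower series, where AQP9 and the second TDH probe did not reach p below 0.05.

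Higher in F2 E at p below 0.01 were both probes of CAV1, the coat protein of caveolae (0.63 ± 0.15 and 0.68 ± 0.17, limma adjusted p = 0.147 and 0.181), with 0.67 and 0.85 in the lower series, PROX1, a transcription factor of hepatocytes and lymphatic vessels (0.88 ± 0.23), MGP, which holds back calcification (0.53 ± 0.17), and KLF3, a repressor of transcription (0.65 ± 0.19), with 0.78, 0.71 and 0.85 for these 3 genes in the lower series. None of these genes passed adjustment over all probes.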
